A study of Mus musculus with 4 samples.

Results

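The levels of 10 genes of the autophagy pathway were followed between migrasomes and cytosol of mouse origin. They are the receptor genes Sqstm1, Nbr1 and Optn, the Atg8 family genes Map1lc3a, Map1lc3b, Gabarap, Gabarapl1 and Gabarapl2, the lipid kinase subunit gene Becn1, and Atg9a. The members were taken by gene symbol, and all 10 were found among the 49568 symbols of the deposited table. A migrasome is a micrometre-sized vesicle left on the trailing fibres of a moving cell. The series holds total RNA of purified migrasome (2 libraries, replicates 1 and 2) and of cytosol (2 libraries, replicates 1 and 2), and its design asks which mRNAs each preparation holds. The labels name no cell type, strain, allele, treatment or age, and they do not state whether the libraries of a group were grown separately. The p-values therefore cover the spread between these libraries alone, which may be technical.

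In autophagy a double membrane grows around cytoplasmic cargo and closes into an autophagosome, which then fuses with lysosomes. Receptors such as p62 (Sqstm1), Nbr1 and optineurin hold cargo with one part of the protein and bind Atg8 proteins with another. The Atg8 proteins, in an LC3 branch (Map1lc3) and a Gabarap branch, are made in the cytosol and are then joined to a lipid of the growing membrane. Beclin 1 is a subunit of the class III PI3-kinase complexes that mark that membrane. Atg9a is the member that spans membranes, a lipid scramblase that travels in small vesicles and is first inserted at the endoplasmic reticulum (ER). The comparison of interest is therefore between the genes for soluble proteins, whose mRNAs are translated in the cytosol, and the gene for the membrane-spanning one.

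The contrast in protein type can be read from the coding sequences. Below are the 57 coding bases that encode the most hydrophobic stretch of 19 residues in Atg9a and in 5 soluble members, taken from the GENCODE M21 transcripts of GRCm38, 5′ to 3′ on the sense strand. Codons for isoleucine, leucine, valine, phenylalanine, methionine, alanine or cysteine are in capitals.
Atg9a: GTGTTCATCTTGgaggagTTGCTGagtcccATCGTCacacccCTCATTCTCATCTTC
Nbr1: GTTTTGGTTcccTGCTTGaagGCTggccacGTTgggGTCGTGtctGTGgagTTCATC
Sqstm1: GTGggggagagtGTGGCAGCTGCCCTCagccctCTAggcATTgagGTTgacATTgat
Map1lc3b: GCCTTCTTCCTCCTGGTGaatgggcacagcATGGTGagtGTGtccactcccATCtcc
Gabarap: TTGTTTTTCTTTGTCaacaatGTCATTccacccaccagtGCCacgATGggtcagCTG
Becn1: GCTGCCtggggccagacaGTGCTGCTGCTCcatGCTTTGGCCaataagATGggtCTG
The mean hydropathy on the Kyte-Doolittle scale, where higher is more hydrophobic, was 2.07 for Atg9a (residues 474 to 492 of 839). It was 1.61 for Nbr1, 1.13 for Map1lc3b, 0.87 for Sqstm1, 0.86 for Gabarap and 0.83 for Becn1. Atg9a had 6 separate stretches at or above 1.6, the customary mark of a possible membrane span. Nbr1 had 1, at the mark itself and lost at 1.8, and the other 8 members had none.

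Values are the deposited normalised read counts, and a ± after a group's level is the SD between its 2 libraries (n = 2). A difference is the mean log2(value + 1) of migrasome less that of cytosol, a scale that understates the change of low genes. The libraries held 5171092 to 8608369 reads assigned to genes. Epithelial and endothelial markers were at or near 0 in all 4 libraries (summed values of 2.83 or lower), and immune markers summed to 28.1 or lower. Of 10 fibroblast markers, whose sums were 49359 and 53827 in cytosol and 59289 and 73050 in migrasome, 5 fell, 1 rose and Lum was at 0 in every library. Neural markers summed to 54.2 and 59.0 in cytosol and to 124 and 133 in migrasome, nuclear RNAs to 77508 and 80588 in cytosol and to 12073 and 16908 in migrasome, and the 6 ER chaperone mRNAs to 47907 and 61087 in cytosol and to 12605 and 15089 in migrasome. Mitochondrially encoded mRNAs summed to 17749 and 28596 in cytosol and to 66543 and 136494 in migrasome. The part of these shifts in the results below was not tested. In RNA of a bulk preparation, fewer vesicles that carry a transcript and fewer copies per vesicle cannot be told apart.

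The 9 soluble members stood at similar or somewhat higher values in migrasome and none passed the test, whereas Atg9a was 2.29 times as high in cytosol as in migrasome and passed it. With limma over 10860 genes, 0 of the 10 members rose, where 8.68% of all tested genes did, and 1 fell, where 17.7% of all tested genes did. That was 943 genes higher and 1919 lower, a split that scaling moved to 322 and 2522 with the same total per library and to 1194 and 1403 with quantile normalization. Sqstm1, Map1lc3a and Becn1 had unadjusted limma p-values of 0.033, 0.034 and 0.030. The share of all tested genes at such unadjusted values is not given here. Of the soluble members, edgeR and DESeq2 on the recovered reads also called 0. DESeq2 did not call Atg9a either (difference -1.16, adjusted p = 0.10), and edgeR did (-1.20, adjusted p = 0.036). The 9 soluble members had a median difference of 0.33, against -0.0043 over all genes tested, and their differences ran from 0.20 to 0.63. Both migrasome libraries lay above both cytosol libraries for 8 of the 9, where 33.3% of all tested genes lay that way. With every library scaled to the same total, the median over all genes shifted to -0.27 and that of the soluble members to 0.057, and 3 of them turned negative, Nbr1 (-0.046), Map1lc3b (-0.074) and Gabarap (-0.014).

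Where 1 library is left out in what follows, its group has 1 library and the spread between replicates comes from the other pair alone, with the lone library assumed to vary like that pair. The SD of the log2 difference between replicates was 0.38 in cytosol and 0.58 in migrasome. Without migrasome replicate 2, 2085 of all tested genes were called higher, and without cytosol replicate 1 or 2 the counts were 286 and 231, against 943 with all 4 libraries. A call gained or lost in such a fit therefore reflects the spread used as well as the difference, and both are given.

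**Figure D1:**
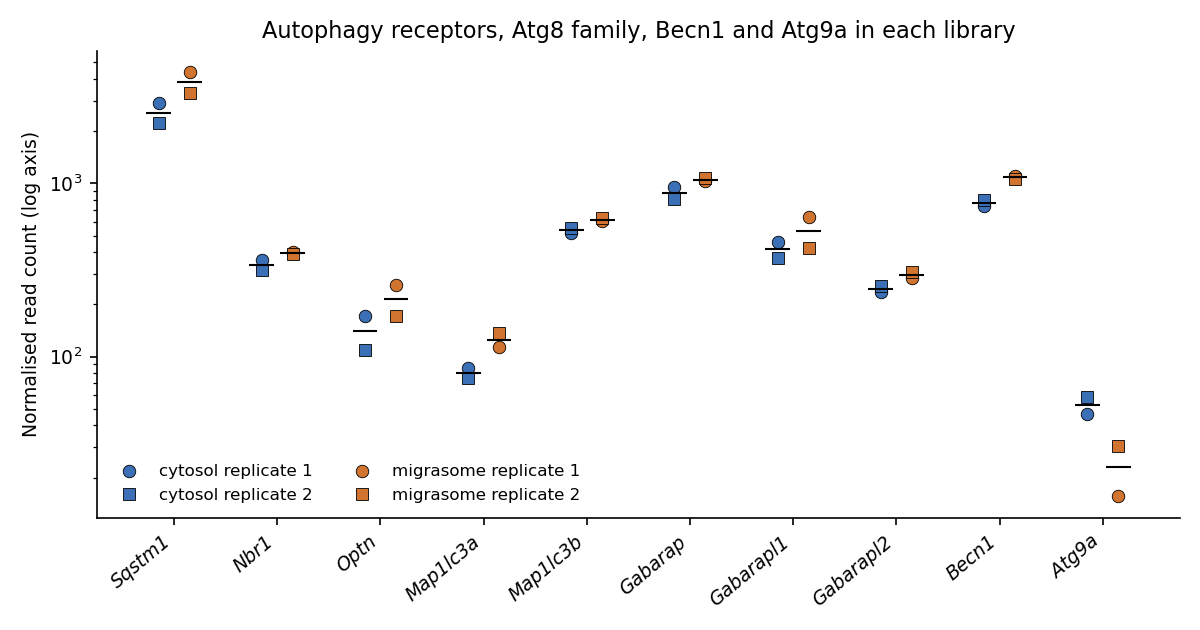
Normalised read counts (log axis) of the 10 members in the 2 cytosol libraries (blue) and the 2 migrasome libraries (orange), with circles for replicate 1, squares for replicate 2 and a bar at each group mean. The migrasome points of Atg9a, at 15.6 and 30.3, lie below its cytosol points at 46.5 and 58.3, while 8 of the other 9 genes have both migrasome points above both cytosol points.

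Sqstm1 encodes p62, which binds ubiquitin-tagged cargo and gathers it into condensates. The gene lies on chromosome 11 from 50199366 to 50210827 (minus strand, GRCm38, GENCODE M21, as for all positions here). With replicate 1 given first from here on, its value was 2905 and 2223 in cytosol and 4407 and 3311 in migrasome. Both migrasome libraries were above both cytosol libraries, and replicate 1 was the higher library in either group. The difference was 0.59 ± 0.24 (SE), with a limma 95% interval of 0.057 to 1.12 and an adjusted p of 0.092. Both scaling alternatives lowered it, to 0.32 with the same total per library and to 0.13 with quantile normalization. It was 0.79 without migrasome replicate 2, where the cytosol pair gives the spread and it passed (limma adjusted p = 0.0093), and 0.38 to 0.78 without any other single library, where it did not.

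Nbr1, on chromosome 11 from 101552149 to 101581951 (plus strand), encodes a receptor related to p62 that works with it on ubiquitin-tagged proteins. It stood at 361 and 317 in cytosol and at 400.2 and 391 in migrasome. The groups did not overlap, and their distance was small, with a difference of 0.23 ± 0.21 (limma adjusted p = 0.43, interval -0.24 to 0.69). Optn, on chromosome 2 from 5020642 to 5064051 (minus strand), encodes optineurin, a receptor for damaged mitochondria and invading bacteria. Its values were 171 and 109 in cytosol and 260.2 and 171 in migrasome, so that cytosol replicate 1 and migrasome replicate 2 were nearly level. The difference was 0.63 ± 0.30 (limma adjusted p = 0.14, interval -0.041 to 1.29), and it was 0.93 without migrasome replicate 2, where it passed on the spread of the cytosol pair (limma adjusted p = 0.018). Among the summed values of the 3 receptor genes, Sqstm1 held 83.9% to 87.0% in every library.

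The LC3 branch was measured by Map1lc3a and Map1lc3b. Map1lc3b, on chromosome 8 from 121590361 to 121598760 (plus strand), encodes LC3B, the Atg8 protein most used to mark autophagosomes. It stood at 521 and 556 in cytosol and at 604 and 630.4 in migrasome, a difference of 0.20 ± 0.20 (limma adjusted p = 0.47, interval -0.24 to 0.64). Its 4 libraries were the closest together of the members. Map1lc3a, on chromosome 2 from 155276297 to 155278073 (plus strand), encodes the paralog LC3A. It stood at 85.3 and 74.8 in cytosol and at 113 and 137 in migrasome. Both migrasome libraries were higher, with a difference of 0.63 ± 0.26 (limma adjusted p = 0.093, interval 0.058 to 1.21). Quantile normalization raised this difference to 1.005, where it passed (limma adjusted p = 0.020). The same total per library lowered it to 0.36, where it did not (limma adjusted p = 0.35).

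The Gabarap branch acts later than LC3, in closing the autophagosome and in its fusion. Gabarap, on chromosome 11 from 69991143 to 69994951 (plus strand), stood at 949.5 and 817 in cytosol and at 1034 and 1074 in migrasome. The groups were close without overlapping, and the difference was 0.26 ± 0.20 (limma adjusted p = 0.35, interval -0.19 to 0.70). Gabarapl2, also known as GATE-16, on chromosome 8 from 111940703 to 111953612 (plus strand), stood at 235 and 254 in cytosol and at 284 and 309 in migrasome (difference 0.28 ± 0.21, limma adjusted p = 0.34). Gabarapl1, on chromosome 6 from 129533160 to 129542346 (plus strand), was the soluble member whose groups overlapped. Its values were 459 and 372 in cytosol and 636 and 424 in migrasome, a difference of 0.33 ± 0.25 (limma adjusted p = 0.33). That difference was 0.036 without migrasome replicate 1 and 0.62 without migrasome replicate 2, where it passed on the spread of the cytosol pair (limma adjusted p = 0.033).

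The makeup of the Atg8 family was described by shares of its summed value, not corrected for length, which were not tested. Gabarap held 42.2% and 39.4% of the summed family value in cytosol and 38.7% and 41.7% in migrasome. Map1lc3b held 23.1% and 26.8% in cytosol and 22.6% and 24.5% in migrasome. The cytosol and migrasome ranges of both shares overlap, as do those of Gabarapl1 and Gabarapl2. The ranges of Map1lc3a did not overlap, with 3.79% and 3.61% in cytosol and 4.24% and 5.32% in migrasome. The summed Gabarap branch was 2.71 and 2.29 times the summed LC3 branch in cytosol and 2.73 and 2.36 times it in migrasome, so that replicate 1 of both groups had the higher ratio. The 5 genes together held 0.0385% and 0.0351% of the cytosol total and 0.0361% and 0.0378% of the migrasome total, and these ranges overlap.

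Becn1 lies on chromosome 11 from 101285952 to 101302286 (minus strand). Its value was 742 and 799 in cytosol and 1112 and 1057 in migrasome. Both migrasome libraries were clearly above both cytosol libraries, and the spread within each group was small. The difference was 0.49 ± 0.19 (limma adjusted p = 0.086, interval 0.057 to 0.93). Both scaling alternatives lowered it, to 0.22 with the same total per library and to 0.32 with quantile normalization. Without migrasome replicate 2 the difference was little moved, at 0.53, and passed on the spread of the cytosol pair (limma adjusted p = 0.044).

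Atg9a, on chromosome 1 from 75180860 to 75192196 (minus strand), was the member that fell. Its value was 46.5 and 58.3 in cytosol and 15.6 and 30.3 in migrasome, or 52.4 ± 8.31 and 22.9 ± 10.4 (SD, n = 2). Both migrasome libraries were below both cytosol libraries, as were those of 36.3% of all tested genes. The cytosol mean was 2.29 times the migrasome mean, and the difference was -1.22 ± 0.39 (limma adjusted p = 0.045, interval -2.10 to -0.35). A lower difference was seen in 12.5% of tested genes, so the size of this fall was not extreme among them.

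The values of Atg9a rest on few reads. Cytosol held 60 and 85 of them and migrasome 11 and 23, with exact 95% Poisson intervals of 45.8 to 77.2, 67.9 to 105.1, 5.5 to 19.7 and 14.6 to 34.5, which cover counting error only. In normalised counts these intervals reach up to 45.4 in migrasome replicate 2 and down to 35.5 in cytosol replicate 1, so that single pair of libraries overlaps within counting error. The call was lost without cytosol replicate 1 (difference -1.38, limma adjusted p = 0.11), without cytosol replicate 2 (-1.06, 0.25) and without migrasome replicate 1 (-0.76, 0.12). Over 13 alternative settings the difference stayed negative, from -1.68 to -0.76, and its adjusted p ran from 0.0021 to 0.25 with 7 calls lost.

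**Figure D2:**
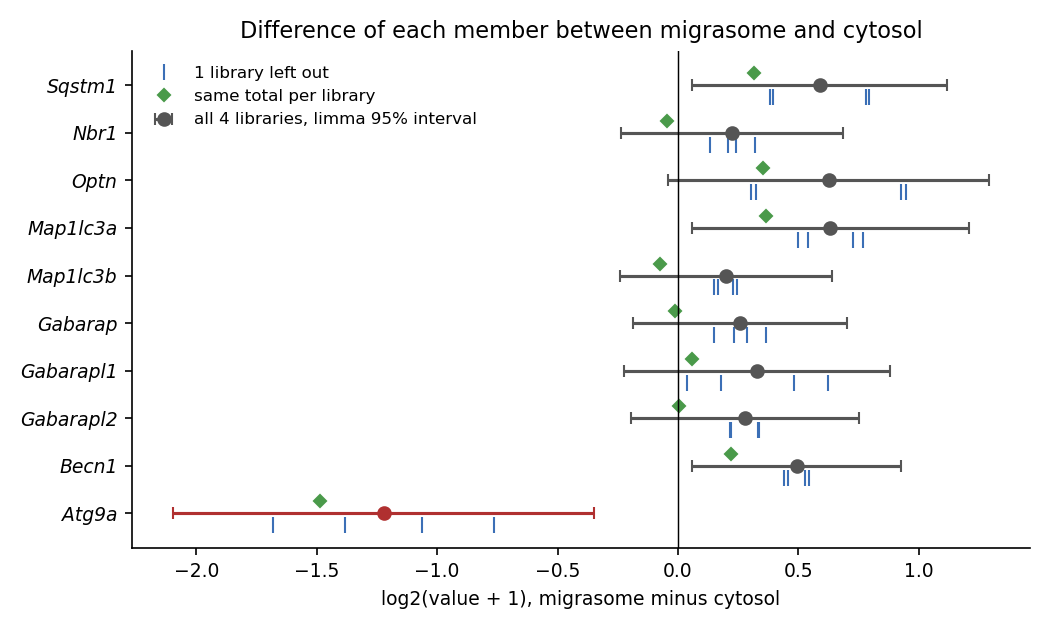
Difference of each member between migrasome and cytosol on the log2(value + 1) scale, with the limma 95% interval (bars), the values with 1 library left out (blue ticks) and the value with all libraries scaled to the same total (green diamonds). The interval of Atg9a (red, called lower) ends at -0.35, and the points of the 9 soluble genes lie between 0.20 and 0.63, of which Nbr1, Map1lc3b and Gabarap fall below 0 with the same total per library.

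The difference between each soluble member and Atg9a was then tested directly, by subtracting the log2 value of Atg9a from that of every gene in the same library, a measure that 1 scale factor per library leaves nearly unchanged. In the ratio to Atg9a, not corrected for length, Sqstm1 was 62.4 and 38.1 times Atg9a in cytosol and 283 and 109 times in migrasome. Becn1 was 15.95 and 13.7 times Atg9a in cytosol and 71.5 and 34.9 times in migrasome. Map1lc3b was 11.2 and 9.53 times Atg9a in cytosol and 38.8 and 20.8 times in migrasome. In each of these cases both migrasome libraries were above both cytosol libraries, and the same held for all 9 soluble members, as it did for 74.0% of all tested genes.

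Relative to Atg9a, 7 of the 9 soluble members rose in migrasome by limma over all genes, where 38.3% of all other tested genes did. Map1lc3a had the largest difference, 1.86 ± 0.54 (limma adjusted p = 0.011), followed by Optn at 1.85 ± 0.56 (limma adjusted p = 0.014) and Sqstm1 at 1.81 ± 0.71 (limma adjusted p = 0.036). Becn1 was higher by 1.71, Gabarapl1 by 1.55 and Nbr1 by 1.45, and with Gabarapl2 these 4 had limma adjusted p-values of 0.035 to 0.048. Gabarap (1.48 ± 0.67, interval 0.17 to 2.79) and Map1lc3b (1.42 ± 0.64, interval 0.16 to 2.68) had a limma adjusted p of 0.062 each and did not pass.

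All 9 of these tests share the error of Atg9a, so they are not independent of each other, and the moderation of the variance across genes treats that shared error as if it were known precisely, which can make their p-values too small. An alternative added after the data were seen combined the errors of the limma estimates of each gene and of Atg9a. All 9 passed in it (adjusted p from 0.020 to 0.028), as did 46.1% of all other tested genes in that direction. It takes both errors as independent, and its SEs were smaller (0.44 to 0.49) than those above (0.54 to 0.71). It is therefore no stricter check on p-values that may be too small. None of the 9 passed when cytosol replicate 1 (limma adjusted p between 0.52 and 0.53) or cytosol replicate 2 (0.72) was omitted, although their differences stayed between 1.20 and 2.33. In those fits the migrasome pair, in which Atg9a had 11 and 23 reads, alone gives the spread, and most of the 9 share the same adjusted p. Without migrasome replicate 1 the differences ran from 0.80 (Gabarapl1) to 1.53 (Map1lc3a). Quantile normalization left 2 that passed (Map1lc3a and Optn), and the share of all genes passing in that fit is not given here. For a single ratio, the smallest two-sided p that an exact permutation of 4 libraries allows is 0.333.

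**Figure D3:**
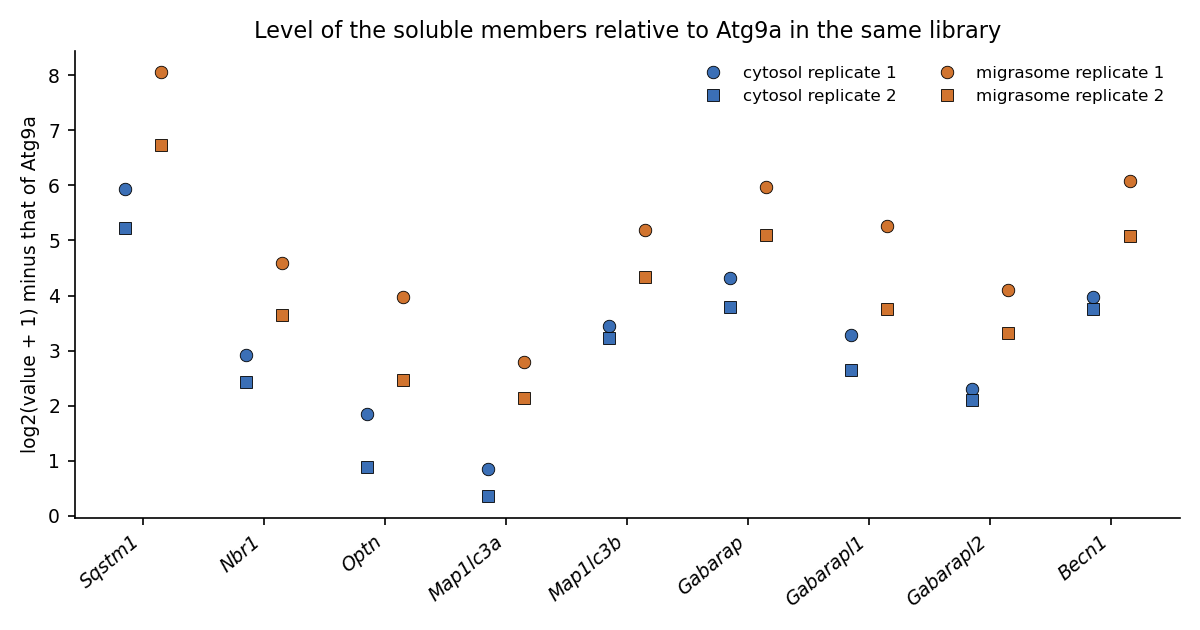
Level of the 9 soluble members relative to Atg9a, as log2(value + 1) minus that of Atg9a in the same library, for cytosol (blue) and migrasome (orange), with circles for replicate 1 and squares for replicate 2. For each gene both migrasome points lie above both cytosol points, and replicate 1 is the higher point in both groups.

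Levels of different members were compared per kilobase of annotated exon. Sqstm1 was the highest in both preparations (764 ± 144 per kilobase in cytosol and 1150 ± 231 in migrasome, SD, n = 2), followed by Gabarap (479 ± 50.9 and 572 ± 15.4) and Gabarapl1 (206 ± 30.7 and 263 ± 74.7). Atg9a was the lowest, at 9.1 ± 1.4 per kilobase in cytosol and 4.0 ± 1.8 in migrasome. In cytosol Becn1 (109 ± 5.7) and Gabarapl2 (105 ± 5.9) had overlapping libraries, as did Map1lc3b (71.6 ± 3.3) and Map1lc3a (67.8 ± 6.3), while in migrasome Nbr1 (57.6 ± 1.0) and Optn (57.5 ± 16.8) overlapped. Per kilobase of the 1 transcript chosen for each gene, Sqstm1 and Atg9a stayed first and last. Gabarapl1, with a chosen transcript of 539 bases against 2013 exonic bases, moved above Gabarap. Ties in that choice were settled by transcript name, so the order of Gabarapl1 and Gabarap depends on the transcript taken.

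Identical runs between the Atg8 coding sequences were short, whereas several members share exonic bases with overlapping genes. Between the coding sequences of the 5 Atg8 genes the longest identical run was 17 bases, and identity over aligned bases was 54.4% to 77.5%. Map1lc3b and Gabarapl2 share stretches of 50 bases with predicted models such as Gm6055 and Gm3724, which held at most 3 reads in any library. Becn1 overlaps the exons of Cntd1 on the opposite strand (43.9% of its exonic bases), and no read was assigned to Cntd1. Atg9a shares 31.8% of its exonic bases with Gm29253 on the same strand, which held at most 3 reads in any library. Gabarapl1 overlaps 1700101I11Rik on the opposite strand over 28.3% of its exonic bases, and that gene held at most 2 reads in any library. Sqstm1 overlaps Mrnip on the opposite strand over 17.3% of its exonic bases, and Mrnip was not analysed here. Atg9a also overlaps Ankzf1 by 46 bases on the opposite strand, and Ankzf1 stood at 46.5 and 39.8 in cytosol and at 22.6 and 23.7 in migrasome without passing (difference -0.87 ± 0.34, limma adjusted p = 0.081). Neither the strand setting nor the handling of ambiguous reads is known here, so values of overlapping genes are uncertain.

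The other genes of the pathway were grouped by role and by how their proteins meet membranes. The lists were chosen with earlier results of these data known, so the counts below are a description and no test. Of 38 genes for soluble proteins, all tested, 4 rose, 4 fell and 30 did not pass, with a median difference of -0.010. Of 12 genes for autophagy proteins that are inserted into the ER membrane, 11 were tested. Of these 7 fell, 4 missed the threshold and none rose, and the median was -1.59. By sign, 9 of the 11 differences were negative and 2 positive. Of 6 genes for tail-anchored proteins or proteins of the mitochondrial outer membrane, 5 missed the threshold and 1 rose, and the median was 0.25. Over all tested genes 8.68% rose, 17.7% fell and the median was -0.0043.

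The ER-inserted group held the largest falls. Tmem41b, a lipid scramblase of the ER needed for autophagosome formation, stood at 469 and 438 in cytosol and fell to 62.2 and 132 in migrasome, a difference of -2.31 ± 0.32 (limma adjusted p = 0.0010). Vmp1, which works with Tmem41b, fell from 743 ± 33.2 to 208 ± 32.8 (-1.84 ± 0.21). The ER-phagy receptor genes Tex264 (-1.79), Fam134a (-1.77), Fam134c (-1.76), Sec62 (-1.59) and Rtn3 (-1.59) fell by similar amounts. Each of these 7 calls was kept in all 14 alternatives. The 4 tested genes that did not pass, 3 of them named after their values were seen, were Atl3 at 927 ± 205 in cytosol and 1270 ± 333 in migrasome (difference 0.45), Ei24 (0.060), Ccpg1 (-0.61) and Fam134b (-0.73). Fam134b missed the limma threshold with an adjusted p of 0.0501, and its difference from the called genes of the group was not tested. Atg9b, the paralog of Atg9a, was not tested, with 1 and 2 reads in cytosol and none in migrasome.

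Among the tail-anchored and mitochondrial group, Bnip3l, a mitophagy receptor, rose from 766 ± 7.95 to 1211 ± 229 (0.65 ± 0.21, limma adjusted p = 0.048), a call that was lost in 7 of 14 alternatives. These included leaving out cytosol replicate 1 (0.66, limma adjusted p = 0.22), cytosol replicate 2 (0.64, 0.23) and migrasome replicate 1 (0.45, 0.11). Fkbp8, anchored in the mitochondrial outer membrane, stood at 910.1 ± 48.5 in cytosol and 1229 ± 9.47 in migrasome without passing (0.43).

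Other soluble receptors and adaptors went both ways. Tax1bp1, a ubiquitin-binding receptor related in use to Nbr1, rose from 1880 ± 56.3 to 3345 ± 707 (0.82 ± 0.22, limma adjusted p = 0.024). Ncoa4, the receptor for ferritin, rose by 0.68 ± 0.21, and Calcoco1, an ER-phagy receptor that is itself soluble, by 1.06 ± 0.32. Tbk1, the kinase that phosphorylates optineurin and p62, fell from 341 ± 11.5 to 202 ± 7.10 (-0.76 ± 0.21, limma adjusted p = 0.027). Tollip stood at 563 ± 31.5 and 688 ± 130.4 without passing. Over 14 alternatives the calls of Tax1bp1 and Ncoa4 were lost in 6 each and those of Calcoco1 and Tbk1 in 5 each. With the same total per library Tax1bp1 was 0.54, Ncoa4 0.41, Calcoco1 0.80 and Tbk1 -1.03. Quantile normalization gave 0.41, 0.75, 1.43 and -0.60 in the same order. With cytosol replicate 1 or 2 omitted, and the spread taken from the migrasome pair, Tax1bp1 (0.78 and 0.85), Ncoa4 (0.62 and 0.74) and Tbk1 (-0.79 and -0.72) kept differences of similar size and did not pass. Ncoa4 also did not pass without migrasome replicate 1 (0.56), nor did Calcoco1 without cytosol replicate 2 (0.84) or migrasome replicate 1 (0.73), and the limma adjusted p-values of these fits ran from 0.073 to 0.27.

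In the conjugation machinery that attaches Atg8 proteins to lipid, 1 of 11 genes rose, 1 fell and 9 did not pass. Of all tested genes, 8.68% rose and 17.7% fell. Atg16l2 rose from 42.2 ± 8.31 to 117 ± 3.69 (1.46 ± 0.28, limma adjusted p = 0.0052), and this call was kept in all 14 alternatives. Its paralog Atg16l1, which places the conjugation enzyme on the membrane, fell from 244 ± 29.2 to 136 ± 16.2 (-0.84 ± 0.23, limma adjusted p = 0.027), a call lost without cytosol replicate 1 (-0.96, limma adjusted p = 0.091) and without cytosol replicate 2 (-0.72, 0.23). Over all 14 alternatives the Atg16l1 call was lost in 5. Atg5 (354 ± 5.22 and 411 ± 7.07) and Atg4b (241 ± 14.5 and 285 ± 51.1) did not pass.

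In the class III PI3-kinase list, which holds the partners of Beclin 1, 2 of 7 genes fell, where 17.7% of all tested genes did. None rose, where 8.68% of all tested genes did, and the median was -0.67. Nrbf2, a regulatory subunit, fell from 74.4 ± 11.1 to 32.0 ± 3.20 (-1.19 ± 0.30), and Pik3r4, a scaffold subunit, from 79.2 ± 4.31 to 37.9 ± 11.6 (-1.08 ± 0.32). Over 14 alternatives the call of Nrbf2 was lost in 4 and that of Pik3r4 in 6. With cytosol replicate 1 or 2 omitted, and the spread taken from the migrasome pair, Nrbf2 (-1.04 and -1.34) and Pik3r4 (-1.02 and -1.13) kept differences of similar size and did not pass. Pik3r4 also did not pass without migrasome replicate 1 (-0.77), and the limma adjusted p-values of these fits lay between 0.076 and 0.21. Rubcn (-0.30) and Uvrag (-0.17) did not pass. None of the 5 Ulk1 kinase complex genes and none of the 6 Atg2 and Wipi genes passed, with medians of -0.11 and 0.12. The most abundant of these were Rb1cc1 (448 ± 28.6 and 397 ± 60.7), Atg101 (228 ± 18.2 and 174 ± 16.5), Wipi2 (1403 ± 48.4 and 1578 ± 47.1) and Wdr45b (737 ± 27.1 and 795 ± 11.5).

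**Figure D4:**
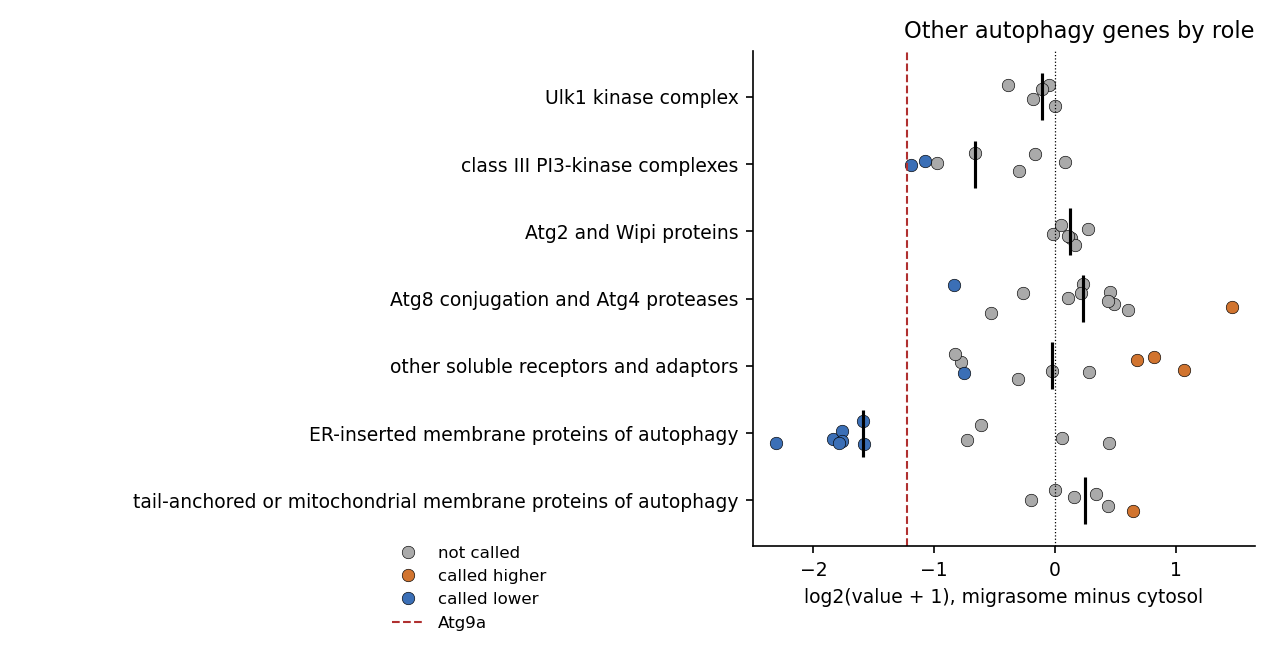
Difference of each other tested autophagy gene between migrasome and cytosol on the log2(value + 1) scale, by role, with called genes coloured, a bar at each list's median and a dashed line at Atg9a. The 7 called ER-inserted genes lie between -2.31 and -1.59, left of Atg9a at -1.22, and the tail-anchored or mitochondrial genes lie around 0.

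Atg9a was set beside other tested genes by the hydrophobic stretches of the encoded protein, counted as for the members above (a signal peptide also counts as a stretch). A complete coding sequence was matched by symbol for 9975 of the 10860 tested genes, and the other 885, among them Fam134a, Fam134b and Fam134c, are in no class. Of 592 classed genes with 4 or more stretches, the class of Atg9a, 64.2% fell and 1.86% rose, with a median difference of -1.28. Of 6939 genes with no stretch, the class of 8 of the 9 soluble members, 7.55% fell and 9.99% rose, with a median of 0.13. Genes with 1 stretch fell in 31.4% of cases and those with 2 to 3 in 48.3%. The difference of Atg9a, -1.22, was close to the median of its class, and the soluble members, at 0.20 to 0.63, were above the median of theirs. With the mark at 1.8, the medians were -1.36 for 4 or more stretches and 0.12 for none. These are counts over genes and no test.

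**Figure D5:**
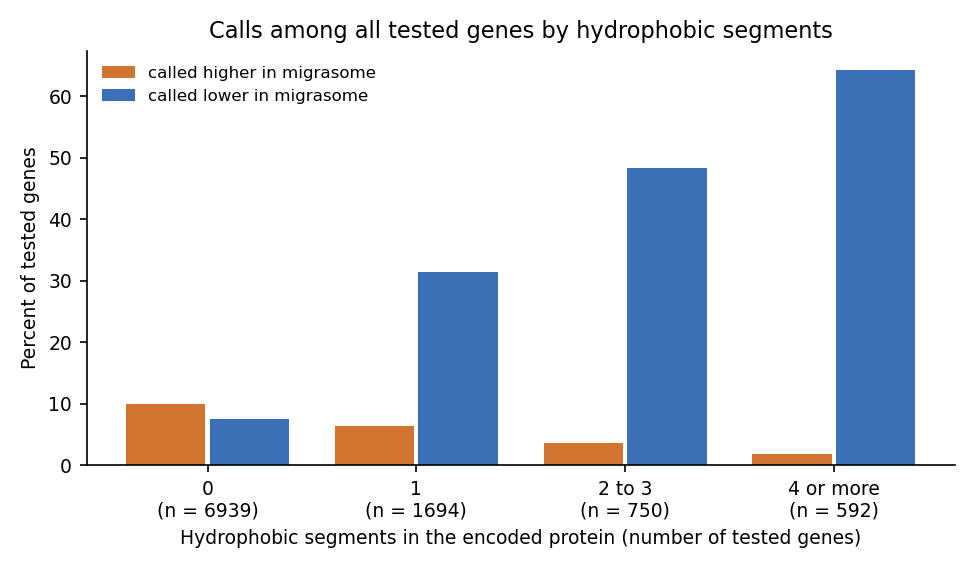
Percent of the 9975 tested genes with a matched coding sequence called higher (orange) and lower (blue) in migrasome, by the number of hydrophobic stretches in the encoded protein. The share called lower is 7.55% with no stretch and 64.2% with 4 or more, the class that holds Atg9a.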

How the data were processed

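RNA of 2 migrasome and 2 cytosol libraries was sequenced. Per the labels, the submitters' processing notes list the tools STAR, HTSeq, DESeq, Trimmomatic, cutadapt and FastQC with no version, and GRCm38 as the build. Annotation, strand setting and multi-mapping rule were not given in the sources used here. What the authors deposited is a signal: from the values themselves, read counts per gene scaled by 1 factor in each library. Dividing by the worth of 1 read gave whole reads for 100% of values (tolerance 0.001). Neither replicate pair is 1 library deposited again (chi-square per degree of freedom 17.6 in cytosol and 27.9 in migrasome).

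The 10860 genes that reached 10 in 2 or more libraries went into limma 3.58.1 (log2(value + 1), trended eBayes, Benjamini-Hochberg over all genes, threshold 0.05) in R 4.3.3. The same fit was made after subtracting the log2 value of Atg9a in each library. edgeR 4.0.16 and DESeq2 1.42.0 ran on recovered reads as alternatives. On simulated data of 10860 genes limma called 34 of 100 genes changed 2-fold, 91 of 100 changed 4-fold and 5 of 10660 unchanged genes. That simulation drew libraries independently and changed equal numbers of genes up and down, unlike the 943 higher and 1919 lower here. Its counts are therefore not error rates of the calls above. Positions, exon lengths and coding sequences came from GENCODE M21. For each gene 1 complete coding sequence was taken, from a principal isoform, else a transcript with the CCDS tag, else any other. Within these the longest coding sequence was taken, and ties were settled by transcript name. Retreg1, Retreg2 and Retreg3 were matched as Fam134b, Fam134a and Fam134c. No fit dropped or imputed a library other than where stated. The text names all members, the called pathway genes and the 2 most abundant genes of each list. Atg9b, Ei24, Ccpg1 and Fam134b were named after their values were seen, and the split by hydrophobic stretches was also chosen then. Members and lists were chosen with earlier results of these data known. Figures were drawn with matplotlib 3.10.9.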

Additional observations from a re-analysis of the deposited data

How the results depend on the processing

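Without a filter on low values the counts were 393 genes higher, 0 members lower, 1 soluble pathway gene higher and 0 lower, and 0 tail-anchored or mitochondrial genes higher. A minimum mean of 50 left Atg9a untested (0 members lower, no ratio to Atg9a). With the same total per library they were 322 genes higher, 1 soluble pathway gene and 0 tail-anchored genes, with differences of -0.046 for Nbr1, -0.074 for Map1lc3b, -0.014 for Gabarap and a tail-anchored median of -0.024. With quantile normalization 1 member was higher (Map1lc3a), 0 were lower, 2 soluble members were higher relative to Atg9a, 0 soluble pathway genes were lower and 0 tail-anchored genes higher. Without a trend there were 483 genes higher, 0 members lower, 1 soluble pathway gene higher and 2 lower, and 0 tail-anchored genes higher. DESeq2 called 0 members lower. Without 1 library the ranges were 231 to 2085 genes higher, 1147 to 2800 genes lower, 0 to 4 members higher, 0 to 1 lower and 0 to 9 soluble members higher relative to Atg9a. They were 1 to 6 soluble pathway genes higher and 0 to 8 lower, 0 to 1 ER-inserted genes higher, 7 to 8 lower and 0 to 2 tail-anchored genes higher. The labels do not pair same-numbered libraries, whose deviations correlated at 0.23 across genes. With a replicate block 1802 of the 10860 tested genes were higher and 2621 lower. In that fit 3 members were higher (Sqstm1, Optn and Map1lc3a, where 16.6% of all genes were). Of the 38 soluble pathway genes 8 were lower. Atg9a limits the depth, with 11 reads in migrasome replicate 1. The cause of these changes was not tested.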
